A study of Mus musculus with 6 samples.

Results

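Mir224 and Mir452 are a pair of miRNA hairpins that lie in one intron of Gabre on the mouse X chromosome. They are 2 of the 1155 miRNA rows of a count table, taken by gene name and selected on their read counts in these same 6 libraries, whose comparison of genotypes was already known. Their levels in the genotypes are therefore given as a description, without a test. The table comes from small RNA sequencing of mouse embryonic fibroblasts, connective tissue cells cultured from embryos. There were 3 Fbxw7 KO libraries, from fibroblasts with a knockout of Fbxw7, and 3 WT libraries. FBXW7 is an F-box protein that brings growth regulators such as cyclin E and Myc to a ubiquitin ligase, which leads to their degradation. The labels name no strain, embryo, passage or method of knockout, so the libraries of a genotype may be technical repeats and their spread may be smaller than that between cultures.

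Gabre encodes the epsilon subunit of the GABA-A receptor, a chloride channel opened by the neurotransmitter GABA. An intronic miRNA hairpin is cut out of the nascent transcript by Drosha and trimmed by Dicer to a short duplex, and 1 strand of the duplex guides Argonaute to messenger RNAs that pair with bases 2 to 8 of the miRNA, its seed. miR-224 is induced by TGF-beta in mouse granulosa cells, where it represses Smad4, and is known to be raised in human liver cancer. miR-452 is known from mouse neural crest cells of the pharyngeal arches.

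The sequences below, from RefSeq on GRCm38.p6, give the annotated mature miRNAs of each hairpin and show that they have different seeds. Capitals mark the seed.
miR-224-5p: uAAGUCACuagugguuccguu
miR-224-3p: aAAUGGUGcccuagugacuaca
miR-452-5p: uGUUUGCAgaggaaacugagac
miR-452-3p: uCAGUCUCaucugcaaagaggu
The 4 seeds differ from each other, and 0 of the other mouse miRNAs among the 1738 mature sequences in the RefSeq table carry any of them.

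The whole hairpins follow, with the mature arms in capitals, because the counts do not separate the arms and a read from any part of a hairpin enters its row.
Mir224 hairpin: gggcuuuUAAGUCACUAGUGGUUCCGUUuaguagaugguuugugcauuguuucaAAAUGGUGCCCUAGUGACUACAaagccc
Mir452 hairpin: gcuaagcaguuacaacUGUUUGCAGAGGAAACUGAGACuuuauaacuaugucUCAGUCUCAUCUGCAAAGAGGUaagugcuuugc
The Mir224 hairpin is 82 bases long with 43.9% G and C, and the Mir452 hairpin is 85 bases long with 41.2%. The predicted folds, from RNAfold, had free energies of −37.3 kcal/mol for Mir224 and −40.0 kcal/mol for Mir452. Neither hairpin shares a run of 16 bases, on either strand, with any of the 1004 other RefSeq mouse hairpins, and 0 other rows of the count table overlap either one. Of the 1155 rows of the count table, 926 have a RefSeq hairpin of the same symbol, so the sequence comparison may miss the remaining rows. Reads that fit several hairpins are left out by the default of featureCounts, a loss to which multicopy miRNAs are more exposed.

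On mm10 the Mir224 row (ENSMUSG00000065542.1) covers chrX:72261031-72261112 and the Mir452 row (ENSMUSG00000070138.1) covers chrX:72262224-72262308, both on the minus strand and both with the same coordinates in GENCODE M21. Gabre, on the same strand, covers chrX:72255999-72274803. In its 9-exon transcript Gabre-201 both hairpins lie in intron 6, which is 3878 bases long, and neither touches an annotated Gabre exon. Mir452 comes first in the direction of transcription, 136 bases after exon 6, and Mir224 follows after a gap of 1111 bases. Of the 3 annotated Gabre transcripts, 2 span Mir452 and 1 spans Mir224. The Gabre messenger RNA was not analysed here.

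**Figure D1:**
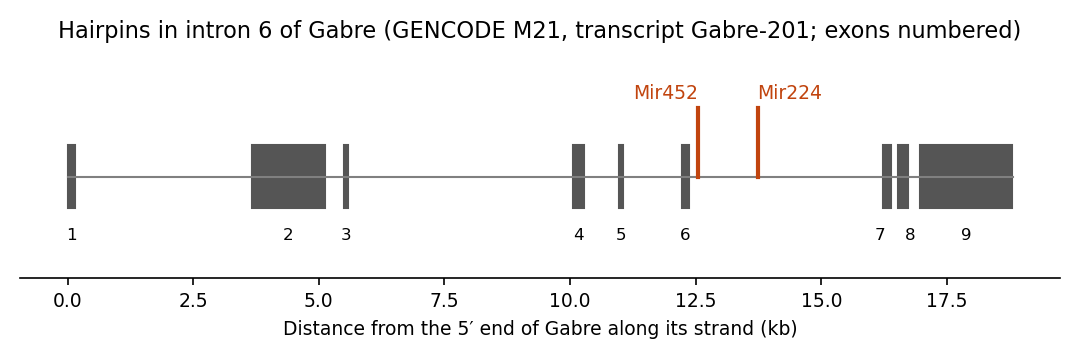
Map of Gabre transcript Gabre-201, drawn 5′ to 3′ along its strand, with distance from the 5′ end in kb on the horizontal axis, exons 1 to 9 as grey boxes and the hairpins as orange bars. Mir452 stands 136 bases after exon 6 and Mir224 further along the same intron.

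The libraries held 2932439 to 3753353 counts in Fbxw7 KO and 3707576 to 5019700 in WT. Between 484 and 508 rows had counts in the Fbxw7 KO libraries, against 513 to 532 in WT. Fibroblast and mesenchymal miRNAs (Mir21a, Mir143 and 5 others) held 53.8% to 56.7% of counts in Fbxw7 KO and 52.7% to 53.9% in WT. Most of these counts came from Mir21a and Mir143, so the match to the labelled cell type rests mainly on them. Of the 7 rows in this list, 2 passed edgeR's test between genotypes (adjusted p under 0.05), in opposite directions. Muscle miRNAs held 0.0213% to 0.0405% in Fbxw7 KO and 0.0136% to 0.0227% in WT, all of it from Mir206, while the other 4 of 5 muscle rows (Mir1a-1, Mir1a-2, Mir133a-1 and Mir133a-2) were at 0. The part of muscle miRNAs in the values of the pair was not tested. Epithelial miRNAs held at most 0.00618% in Fbxw7 KO and 0.00262% in WT, blood miRNAs at most 0.000307% and 0.000438%, and neuronal miRNAs at most 0.000171% and 6.57e-05%. The liver miRNA Mir122 held 0.000693% to 0.00232% in Fbxw7 KO and 0.00165% to 0.00183% in WT. In bulk libraries, fewer cells that make a miRNA and less of it per cell cannot be told apart.

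Mir224 was the abundant member and was lower in Fbxw7 KO than in WT. Its row held 628, 648 and 743 reads in Fbxw7 KO replicates 1 to 3, against 1303, 1305 and 1018 in WT replicates 1 to 3. As CPM, counts scaled to a common library size after TMM normalization, these were 198, 220.1 and 190 in Fbxw7 KO, against 261, 310.2 and 265 in WT. The highest Fbxw7 KO library, replicate 2, lay 41.3 CPM under the lowest WT library, replicate 1, so the genotypes did not overlap. WT replicate 2 was the high library of its genotype, while the other WT libraries were close together.

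The mean of Mir224 was 203 ± 15.5 CPM in Fbxw7 KO and 279 ± 27.3 CPM in WT (SD, n = 3 each), so the Fbxw7 KO mean was 72.8% of the WT mean. The log2 fold change of Fbxw7 KO over WT was −0.46, with an SE of 0.145. This SE was worked back from the test statistic of edgeR's fit to all tested rows. On the deposited FPKM values the means were 2492 ± 152 in Fbxw7 KO and 3366 ± 226 in WT. Summed over libraries, the share of reads in Fbxw7 KO was 0.753 of that in WT (exact 95% interval 0.713 to 0.796, counting error only). That interval leaves out the larger spread between libraries, so it is too narrow for the genotypes and is no test of them. The coefficient of variation between libraries was 7.62% in Fbxw7 KO and 9.79% in WT, where counting alone would give 3.86% and 2.9%. Mir224 ranked 110 to 111 among the 1155 rows in the Fbxw7 KO libraries and 98 to 104 in the WT libraries.

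Mir452 was far scarcer, and its genotypes overlapped. Its row held 30, 38 and 27 reads in Fbxw7 KO replicates 1 to 3, against 60, 43 and 40 in WT replicates 1 to 3. These were 9.46, 12.9 and 6.92 CPM in Fbxw7 KO, against 12.04, 10.2 and 10.4 CPM in WT. Fbxw7 KO held both the highest library, replicate 2, and the lowest, replicate 3, with all WT libraries between them.

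The mean of Mir452 was 9.76 ± 3.01 CPM in Fbxw7 KO and 10.9 ± 1.002 CPM in WT (SD, n = 3 each). Its log2 fold change was −0.18 with an SE of 0.26, so the difference was smaller than its error. The summed share of reads in Fbxw7 KO was 0.899 of that in WT (exact 95% interval 0.686 to 1.17, counting error only), which spans both no difference and the ratio of Mir224. The coefficient of variation was 30.8% in Fbxw7 KO, where counting alone would give 18%, and 9.21% in WT, where counting alone would give 14.7%. Without Fbxw7 KO replicate 3 the log2 fold change was 0.04, and without Fbxw7 KO replicate 2 it was −0.45.

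**Figure D2:**
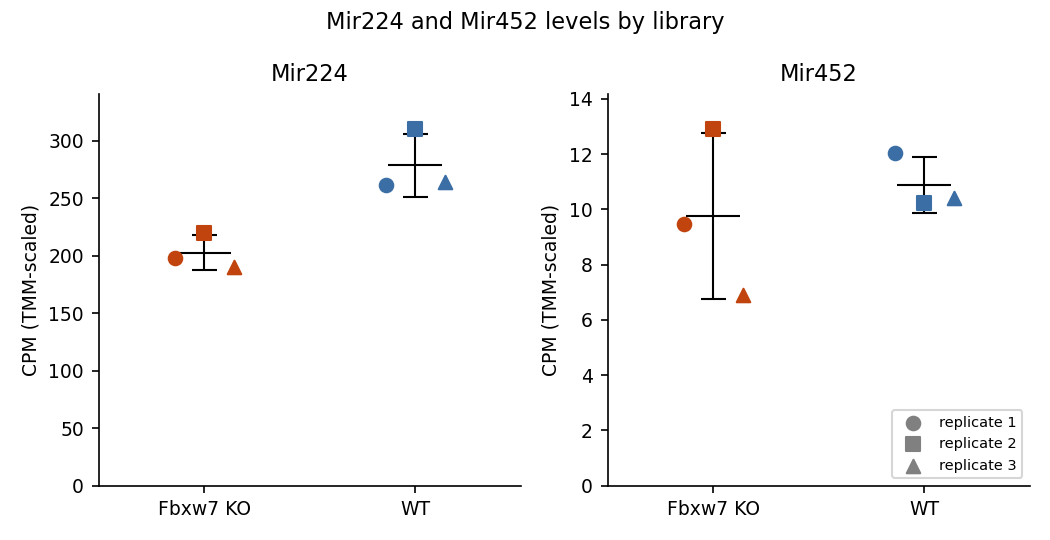
CPM of Mir224 (left) and Mir452 (right) in each library, with Fbxw7 KO in orange and WT in blue, marker shapes for replicates 1 to 3, and black bars for the mean ± SD (n = 3). The Mir224 libraries of Fbxw7 KO (190 to 220.1 CPM) lie under those of WT (261 to 310.2 CPM), while those of Mir452 overlap.

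Across all 283 rows that passed edgeR's filter on low counts, 72 were called at an adjusted p under 0.05 (25.4%), 43 higher and 29 lower in Fbxw7 KO. With TMM factors from rows outside the Dlk1-Dio3 region the split was 30 higher and 34 lower. Both hairpins passed the filter, and 1 of the 2, Mir224, was among the called rows. It stood 69th of 283 when rows were ordered by p, near the edge of the 72 called. The call ended in 10 of 15 alternatives, among them the omission of any one of the 6 libraries. Non-overlapping genotypes were also common, at 43.8% of tested rows, 20.1% with Fbxw7 KO lower. Since the pair was chosen with this contrast known, nothing is read from these counts.

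Against all tested rows the difference in Mir224 was of moderate size. The median log2 fold change of the 283 rows was 0.05, and the median of their absolute values was 0.34. Mir224 stood 43rd from the lowest of the 283 fold changes and Mir452 100th. The SE was larger among scarcer rows. The 58 tested rows between 100 and 500 CPM had a median SE of 0.176, and 18 of them were called. The 50 rows between 5 and 20 CPM, where Mir452 lies, had a median SE of 0.27, and 12 were called.

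**Figure D3:**
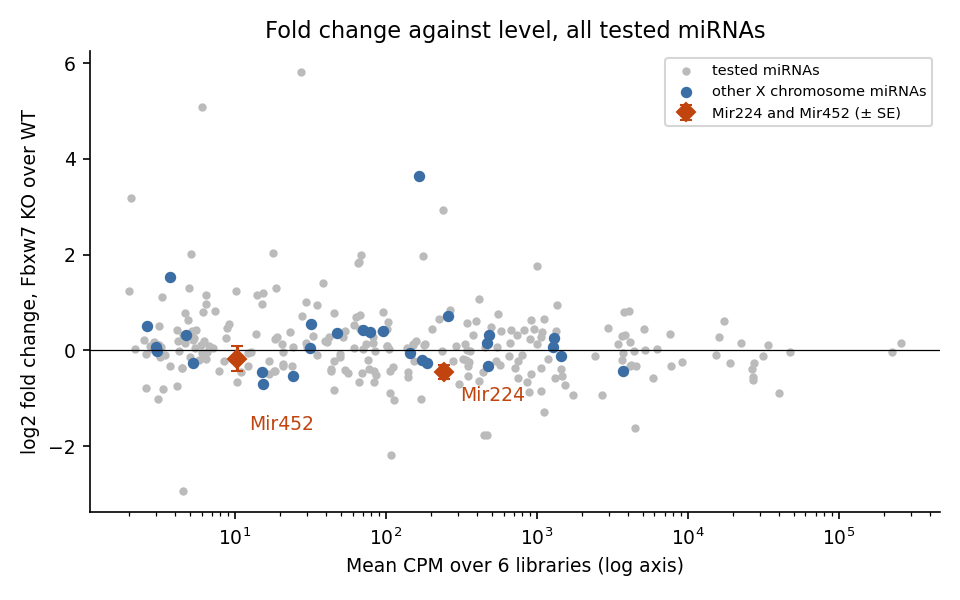
Log2 fold change of Fbxw7 KO over WT against mean CPM over 6 libraries (log axis) for the 283 tested miRNAs, with other X chromosome miRNAs in blue and Mir224 and Mir452 as orange diamonds with ± SE. Both lie below 0, Mir224 at −0.46 and Mir452 at −0.18, within the cloud of other rows.

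The hairpins of the pair differed in read level far more than the genotypes did. On the length-scaled FPKM of the deposited table, Mir224 averaged 2492 against 115 for Mir452 in Fbxw7 KO, and 3366 against 127 in WT. The ratio of Mir224 to Mir452 reads was 20.6, 16.8 and 27.04 in Fbxw7 KO replicates 1 to 3, against 21.5, 30.01 and 25.1 in WT replicates 1 to 3. Fbxw7 KO replicate 3 lay within the WT range and replicates 1 and 2 lay under it. The mean log2 ratio was 4.40 ± 0.34 in Fbxw7 KO and 4.66 ± 0.24 in WT (SD, n = 3 each), a difference of −0.26. The pooled SD of single libraries was 0.295, which is not the error of that difference, and the difference was not tested. The ratio within a library does not depend on how libraries are scaled. How efficiently each miRNA was captured and ligated was not measured, so the ratio of reads need not equal the ratio of molecules.

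**Figure D4:**
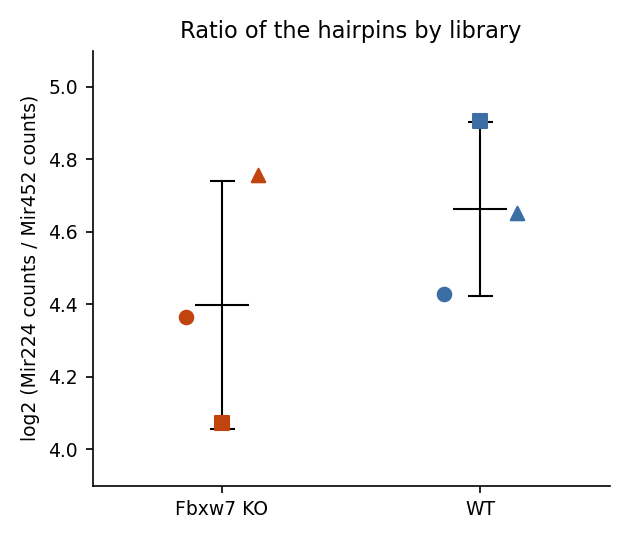
Log2 ratio of Mir224 to Mir452 counts in each library, Fbxw7 KO in orange and WT in blue, with circles, squares and triangles for replicates 1 to 3 and black bars for the mean ± SD (n = 3); the axis does not start at 0. Fbxw7 KO replicate 3 falls inside the WT range.

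Unequal levels were usual among hairpins that neighbour each other. The tested rows held 80 pairs of consecutive hairpins on one strand with at most 10 kb between them. Mean levels differed 23.3-fold between Mir224 and Mir452, against a median of 5.33-fold over the 80 pairs, and 61 pairs differed by less. The log2 fold changes of Mir224 and Mir452 differed by 0.28, against a median of 0.31, and 37 pairs differed by less. Pairs share members in longer clusters, so they are not independent, and row lengths were not corrected for.

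The 4 tested rows whose centred log2 CPM followed that of Mir224 most closely over the 6 libraries were Mir1843b, Mir467d, Mir669c and Mir181d. Their root mean square differences from Mir224 were 0.0986, 0.111, 0.119 and 0.12 on the log2 scale, against a median of 0.384 over 282 rows. Mir1843b lies in Cop1, Mir467d and Mir669c in Sfmbt2 and Mir181d in Nanos3, so none shares a chromosome with Gabre. Each had a negative log2 fold change, from −0.43 for Mir669c to −0.28 for Mir467d, and none passed edgeR's test (adjusted p from 0.0737 for Mir181d to 0.29 for Mir467d). The rows were matched to Mir224 over all 6 libraries of both genotypes, so the shared direction follows from how they were chosen. Mir1843b shares at least 20 bases with Mir1843a, and Mir467d and Mir669c belong to multicopy families, so their counts are uncertain.

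For Mir452 the closest rows were Mir154, Mir7666, Mir376a and Mir330, with differences of 0.0849, 0.142, 0.145 and 0.163 on the log2 scale, against a median of 0.404. Mir154 and Mir376a both lie in the Dlk1-Dio3 region of chromosome 12, and the Mir154 row overlaps that of its host transcript Mirg, which makes its count uncertain. None of the 4 passed edgeR's test (adjusted p from 0.173 for Mir376a to 0.879 for Mir7666). These rows too were chosen on a profile that includes the difference between genotypes. Mir452 itself was 84th among the rows closest to Mir224, and Mir224 was 39th among those closest to Mir452, with a difference of 0.267 between them. The hairpins of one intron were not each other's closest profiles in these counts. Counting alone would give Mir452 a coefficient of variation of 18% in Fbxw7 KO and 14.7% in WT. That error enters the difference of 0.267, so the ranks do not show whether the hairpins vary apart. This is a description over 6 libraries that share their scaling.

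Of 87 other X chromosome rows, 34 were listed at 0 and 27 were tested. Among the tested, 3 rose, 1 fell and 23 did not pass edgeR's test, which is 14.8% called beside 25.4% of all tested rows, a difference that was not tested. The genotypes did not overlap in 8 of the 27, beside 43.8% of all tested rows. Their median log2 fold change was 0.07, close to the 0.05 of all rows, and 11 of the 27 were negative. Ordered with them, Mir224 was the 4th lowest and Mir452 the 10th lowest of 29. The count of called X chromosome rows dropped to 1 when Fbxw7 KO replicate 2 was left out, and to 2 when Fbxw7 KO replicate 1, WT replicate 1 or WT replicate 2 was left out.

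The rises included Mir672, in the X-linked intellectual disability gene Nexmif, at 307 ± 40.4 CPM in Fbxw7 KO and 24.5 ± 10.2 in WT (SD, n = 3 each; log2 fold change 3.64, edgeR adjusted p = 0.000226). Mir676, in Eda, the gene of the signalling protein ectodysplasin, had 320.5, 312.5 and 328 CPM in Fbxw7 KO, against 202, 226 and 154 in WT (log2 fold change 0.72, SE 0.168, edgeR adjusted p = 0.0161). This call ended without Fbxw7 KO replicate 2 (adjusted p = 0.0522). Mir1298, in the serotonin receptor gene Htr2c, averaged 5.53 ± 2.54 CPM in Fbxw7 KO and 1.87 ± 0.488 in WT (SD, n = 3 each; log2 fold change 1.53, edgeR adjusted p = 0.033), a call that ended in 6 of 14 alternatives. The row that fell was Mir188, in the chloride transporter gene Clcn5, with 10.7, 9.51 and 14.6 CPM in Fbxw7 KO, against 21.3, 18.3 and 17.2 in WT (log2 fold change −0.69, SE 0.223, edgeR adjusted p = 0.0498). That call ended in 12 of 15 alternatives (adjusted p up to 0.153).

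**Figure D5:**
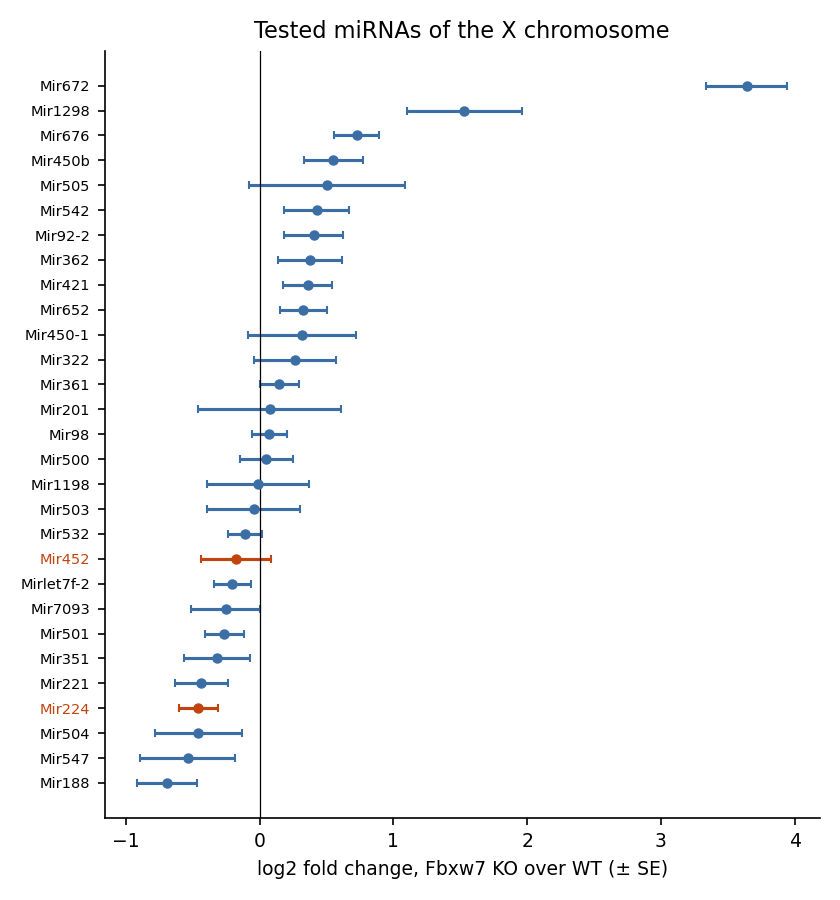
Log2 fold change of Fbxw7 KO over WT, ± SE, for the 29 tested miRNAs of the X chromosome, ordered by value, with Mir224 and Mir452 in orange. Mir672 stands apart at 3.64, and Mir224 and Mir452 are the 4th and 10th from the bottom.

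Within 5 Mb of the pair the table has 10 other rows, 4 of them listed at 0. These include Mir767 and Mir105, which lie in Gabra3, the gene of another GABA-A receptor subunit and a neighbour of Gabre. A count of 0 allows up to 3 counts, or 0.598 to 1.02 CPM of the unscaled total in a single library, for counting error only. Mir201 and Mir547 were tested and did not pass (log2 fold changes 0.07 and −0.54, edgeR adjusted p = 0.931 and 0.29). Mir2137, in Zfp185, was under the filter, with 19, 11 and 8 reads in Fbxw7 KO against 4, 5 and 3 in WT. Mir5132, Mir7091 and Mir7092 were also under the filter, with at most 16 reads in a library.

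As background, TGF-beta induces miR-224 in granulosa cells, and other miRNAs respond to the same signal. A list of 19 rows for miRNAs known to respond to TGF-beta in mammalian cells, either up or down, was set beside the pair. Of the 12 tested, 3 rose, 0 fell and 9 did not pass edgeR's test, 25% called against 25.4% of all tested rows. The 3 were Mir217 (log2 fold change 5.82, edgeR adjusted p = 0.000666), Mir216a (5.09, adjusted p = 0.00293) and Mir29a (0.62, adjusted p = 0.00788). Mir217 had 221, 223 and 66 reads in Fbxw7 KO replicates 1 to 3, against 4, 5 and 3 in WT. Mir216a had 50, 49 and 11 reads, against 2, 1 and 1 in WT. The sizes of both fold changes thus rest on few WT reads, and Fbxw7 KO replicate 3 was the low library of its genotype. Mir217 and Mir216a are induced by TGF-beta in mouse mesangial cells, whereas the miR-29 family, repressors of collagen genes, is lowered by it. The part of TGF-beta in these values was not tested. The call of Mir29a ended without Fbxw7 KO replicate 2 (adjusted p = 0.0512). The median log2 fold change of the 12 was 0.30, and Mir21a and Mir143, the most abundant of them, had 0.15 and −0.03 (adjusted p = 0.338 and 0.883). Mir224, with −0.46, lay below every tested member of this list, a description only, since the pair and the list were chosen with earlier results known.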

How the data were processed

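Small RNA of mouse embryonic fibroblasts was sequenced in 3 Fbxw7 KO and 3 WT libraries. The authors' deposited counts per miRNA gene name were made with featureCounts 1.6.4, with strand ignored, per the file headers. The build was mm10 and the tools listed were TopHat2 2.1.1, SAMtools 1.5, Cufflinks 2.2.1 and deepTools, per the submitters' processing notes. Read trimming is not given in the sources used here. The deposited FPKM values equal counts divided by row length and 1 constant per library, so they are no independent measurement.

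Counts were fitted with edgeR 4.0.16 in R 4.3.3 (TMM, filterByExpr with minimum count 10 and total 15, robust quasi-likelihood test, 2-sided, genotype as the only term). P-values were adjusted by Benjamini-Hochberg over 283 of 1155 rows, with a threshold of 0.05. CPM values use TMM-scaled totals. Each SE of a log2 fold change was its absolute value divided by the square root of edgeR's F statistic, since the test returns no SE. Log2 ratios used a pseudocount of 0.5 counts, as did log2 CPM for likeness. Likeness was the root mean square difference of log2 CPM after each row's mean was subtracted. Folds came from RNAfold 2.7.2. Alternatives used DESeq2 1.42.0 and limma 3.58.1 on log2(FPKM + 1) and log2(FPKM + 0.1). The fit was tested on simulated data.

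The pair, the lists and the rule for naming genes were chosen with earlier results of these data known. The rule names, per hairpin, the 4 closest rows, up to 3 called X chromosome or TGF-beta list rows per direction with the lowest p, and rows with counts within 5 Mb. Mir767, Mir105, Mir21a, Mir143, Mir122, Mir206, Mir1a-1, Mir1a-2, Mir133a-1, Mir133a-2 and Mir1843a lie outside it and were named after values were seen.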

Additional observations from a re-analysis of the deposited data

How the results depend on the processing

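The log2 fold change of Mir224 was negative in all 15 alternatives (−0.59 to −0.36). Its largest shift, to −0.59, came with TMM factors from rows outside the Dlk1-Dio3 region, which moved the median of all tested rows by −0.12. That of Mir452 was negative in 14 of 15 and ranged from −0.45 to 0.04. The difference in their log2 ratio was negative in all 10 alternatives (−0.44 to −0.10). The number of hairpins of the pair called was 0 with library totals only, with no filter on low counts, with a filter at 10 CPM in 3 libraries, with the replicate block and, leaving out each library in turn, 0 in every case. It stayed at 1 in the other 5 alternatives. Changed miRNAs in all ranged from 34 to 78 over the leave-outs, and were 34 when Fbxw7 KO replicate 2 was left out, 35 for WT replicate 2 and 42 for WT replicate 1. Called X chromosome rows ranged from 1 to 6 over the leave-outs and were 2 with the stricter filter. The TGF-beta list count ranged from 2 to 3. For 17 other named miRNAs, 228 of 251 alternative fits kept their side of the threshold, 20 lost the call and 3, all of Mir181d, gained it. The labels do not say that the replicate numbers pair libraries, and the deviations of same-numbered libraries correlated at −0.06, 0.14 and 0.16, with Fbxw7 KO replicate 1 closest to WT replicate 2. The replicate block gave 76 changed miRNAs. Mir452 had 27 to 60 reads a library, and its spread in Fbxw7 KO (coefficient of variation 30.8%) was above the 18% that counting alone gives.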
